A study of Mus musculus with 4 samples.

Results

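Conventional dendritic cells (cDCs) take up antigen in tissues and present it to T cells. They form a cDC1 branch, which depends on the transcription factors IRF8 and BATF3 and is specialized in presenting the antigens of dead cells to CD8+ T cells, and a cDC2 branch, which mainly presents antigen to CD4+ T cells. Both branches grow under the cytokine FLT3L through its receptor FLT3, and cDC1s are known in tumors for attracting and being attracted by XCL1-producing T and NK cells. Here 10 genes used to recognize these cells were followed. They were chosen by symbol among the 55367 gene rows of the count tables, and all 10 were found. Those associated with cDC1s were Xcr1, Clec9a, Batf3, Irf8, Naaa and Wdfy4, those associated with cDC2s were Cd209a, Mgl2 and Clec10a, and Flt3 marks both branches.

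The libraries were made from polyadenylated RNA of cells sorted from dissociated mouse tumors grown from the melanoma line B16-F10, with CD45.2+CD8+ as the labeled sort. The WT and KO labels covered 2 libraries each, and the labels gave no further genotype, age, sex or treatment. The design text of the series names WT mice and mice with floxed Satb1 alleles (Satb1 F/F) carrying ThPOK-cre, which acts in the CD4 T-cell lineage, or E8I-cre, which acts in the CD8 T-cell lineage, but which driver stood behind the KO label was not stated. Neither driver is a dendritic cell driver. Nothing stated that the libraries came from separate animals, so p-values measure only the spread between these libraries, which may be technical.

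Gene counts per library ranged from 4017875 to 5382915. Satb1, the targeted gene, had 7 and 5 counts under the WT label and 131 and 55 under the KO label (log2 fold change 3.36 ± 0.79 (SE), edgeR adjusted p = 0.115). Its level did not mark a deletion, and counts over the whole gene cannot exclude one. Satb1 passed the filter on low counts only through the libraries labeled KO, and its call depended on the processing (DESeq2 adjusted p = 0.0140). Per 1000 counts on a list of 10 T cell genes, which were also higher under the KO label, Satb1 had 25.9 and 11.04 against 12.0 and 8.29 counts. The cells that carried the deletion are not given. Whether the labels of genotype and sort are right could not be settled from these values, each direction below is that of the libraries as labeled, and all would turn if the WT and KO labels were exchanged. Xist, the RNA of X inactivation in females, was at 435 and 216 counts against 0 and 3, and the sex of the animals and the label cannot be told apart. The sort was checked through marker genes. The 2 chains of the CD8 receptor, Cd8a and Cd8b1, were scarce under the WT label (24 and 28 counts of Cd8a, 23 and 43 of Cd8b1) and higher under the KO label (843 and 733 of Cd8a, 723 and 389 of Cd8b1). All 10 T cell genes examined were at or above 4 counts in each library and together held 0.00672% and 0.0106% of gene counts against 0.244% and 0.123%, and 9 of the 10 passed as higher in edgeR, where 0.549% of all genes tested did. Of these, only Cd8a and Cd8b1 were followed with single libraries left out, and Cd8b1 lost its call without WT 1 (log2 fold change 3.20). A macrophage or monocyte list of 13 genes, with the lysozyme gene Lyz2 and the complement gene C1qb as its most abundant members, held from 2.37% to 4.05% of gene counts in every library. Melanoma genes held 0.0226% and 0.0268% against 0.239% and 0.132%. In bulk RNA, fewer cells of a type and less RNA per cell cannot be told apart, here and for every value below.

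**Figure D1:**
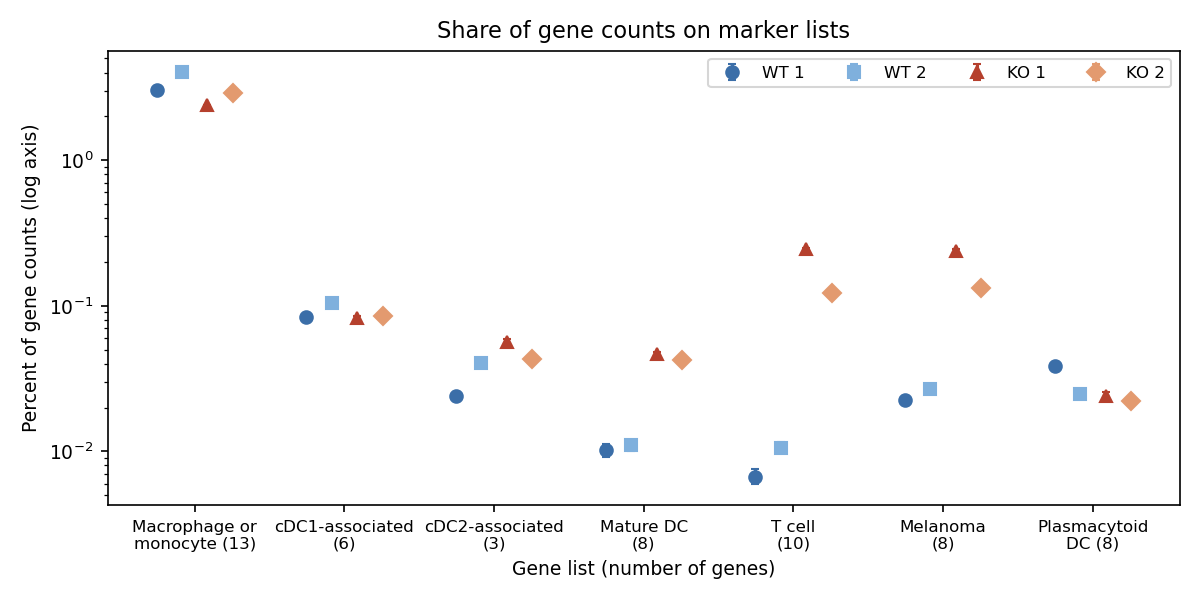
Share of gene counts (percent, log axis) on 7 marker lists in WT 1, WT 2, KO 1 and KO 2, with exact Clopper-Pearson 95% intervals that cover counting error only. The macrophage or monocyte list lies at or above 2.37% in every library, both lists of cDC genes lie between 0.0241% and 0.104%, and the T cell and melanoma lists are higher in both libraries labeled KO.

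The label of a cDC signature was then checked against its defining members. Xcr1, Clec9a and Flt3, the most restricted markers, were close to absent in all 4 libraries, whereas Irf8, Naaa, Mgl2 and Clec10a were abundant. Irf8 is also expressed by macrophages, B cells and plasmacytoid dendritic cells, Naaa by macrophages, and Mgl2, Clec10a and Cd209a by macrophages and monocyte-derived cells. The genes are therefore described here as cDC-associated genes and not as a measure of cDCs. Beside the macrophage or monocyte list given above, a list of 6 B cell genes held 0.00866% and 0.0213% of gene counts in WT 1 and WT 2 against 0.0268% and 0.0184% in KO 1 and KO 2. Pax5 on this list had 0 counts in all 4 libraries, whereas the immunoglobulin gene Ighm had 284, 724, 1179 and 908 counts (log2 fold change 0.53) and the B cell receptor gene Cd79b had 61, 182, 12 and 73 (-2.07), and neither passed. A list of 8 genes of plasmacytoid dendritic cells held 0.0385% and 0.0250% against 0.0241% and 0.0222%. Its defining marker Siglech had 0, 2, 2 and 0 counts and Bst2, which interferon induces in many cells, had 1489, 948, 795 and 998 (log2 fold change -1.07) and made up most of this share. The other 2 tested members, Tcf4 (37, 81, 216 and 122 counts, 0.99) and Runx2 (11, 18, 50 and 66 counts, 1.43), were higher in both libraries labeled KO, the median of the list was 0.99, and none of the 3 passed. The part of these cell types in the values below was not tested.

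Because Mgl2 and Clec10a are neighboring copies, their sequences were compared before their counts. Mgl2 lies at chr11:70130329-70137550 and Clec10a at chr11:70156197-70170834, both on the plus strand of GRCm38/mm10 (GENCODE M21). Their coding sequences, of 999 and 918 bases in the transcripts Mgl2-201 and Clec10a-201, were identical at 91.9% of 916 aligned bases. The longest run shared letter for letter was 183 coding bases, which joined exons 7, 8 and 9 of each transcript, with the exon 8 part at chr11:70136441-70136592 in Mgl2 and chr11:70169926-70170077 in Clec10a. It is shown because reads that fall wholly inside it cannot be given to either gene; capitals mark the shared run and lower case the 20 coding bases on each side.
Mgl2: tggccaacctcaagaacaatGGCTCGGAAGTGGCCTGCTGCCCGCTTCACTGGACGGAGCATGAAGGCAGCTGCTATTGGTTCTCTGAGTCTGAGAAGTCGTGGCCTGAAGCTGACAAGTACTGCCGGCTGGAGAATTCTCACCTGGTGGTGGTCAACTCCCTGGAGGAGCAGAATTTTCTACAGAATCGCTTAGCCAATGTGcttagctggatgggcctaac
Clec10a: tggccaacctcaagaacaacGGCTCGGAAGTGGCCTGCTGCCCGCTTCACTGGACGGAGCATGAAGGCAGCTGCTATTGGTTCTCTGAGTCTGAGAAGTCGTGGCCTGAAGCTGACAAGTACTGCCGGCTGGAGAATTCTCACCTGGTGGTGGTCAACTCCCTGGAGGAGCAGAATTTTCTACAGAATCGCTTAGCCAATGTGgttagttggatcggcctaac

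Over all transcripts, 12.2% of the distinct 50-base windows of Mgl2 and 8.49% of those of Clec10a occurred in the other gene. Reads from such windows can align to more than 1 place, and HTSeq leaves out such reads in its default mode, so the levels of this pair are somewhat uncertain. The remaining members were largely unique. Batf3, Irf8, Wdfy4 and Cd209a shared no 50-base window with another gene, Flt3, Naaa and Xcr1 shared 0.0163%, 0.425% and 1.43%, and Clec9a shared 4.02%, all with its neighbor Clec1b, whose annotated exons overlap 5.59% of its exonic bases on the same strand.

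Levels between genes were compared as CPM (counts scaled to a library total of 1000000) per kilobase of annotated exon, averaged over the 4 libraries. Mgl2, with 103, and Naaa, with 103, were highest and were not ranked apart. Naaa stood above Mgl2 in both libraries labeled WT, and Mgl2 above Naaa in both labeled KO. Irf8 followed with 57.6 and Clec10a with 50.2, which also changed places. Cd209a, with 30.9, ranged from the third to the seventh place, Batf3 had 23.7 and Wdfy4 5.72. Clec9a, Xcr1 and Flt3, with 0.605, 0.556 and 0.290, took the last 3 places in every library, in varying order. The 6 cDC1-associated genes together held 0.0844%, 0.104%, 0.0826% and 0.0856% of gene counts in WT 1, WT 2, KO 1 and KO 2. Of this sum, Irf8 and Naaa alone made up 88.5%, 85.1%, 90.8% and 90.3%.

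**Figure D2:**
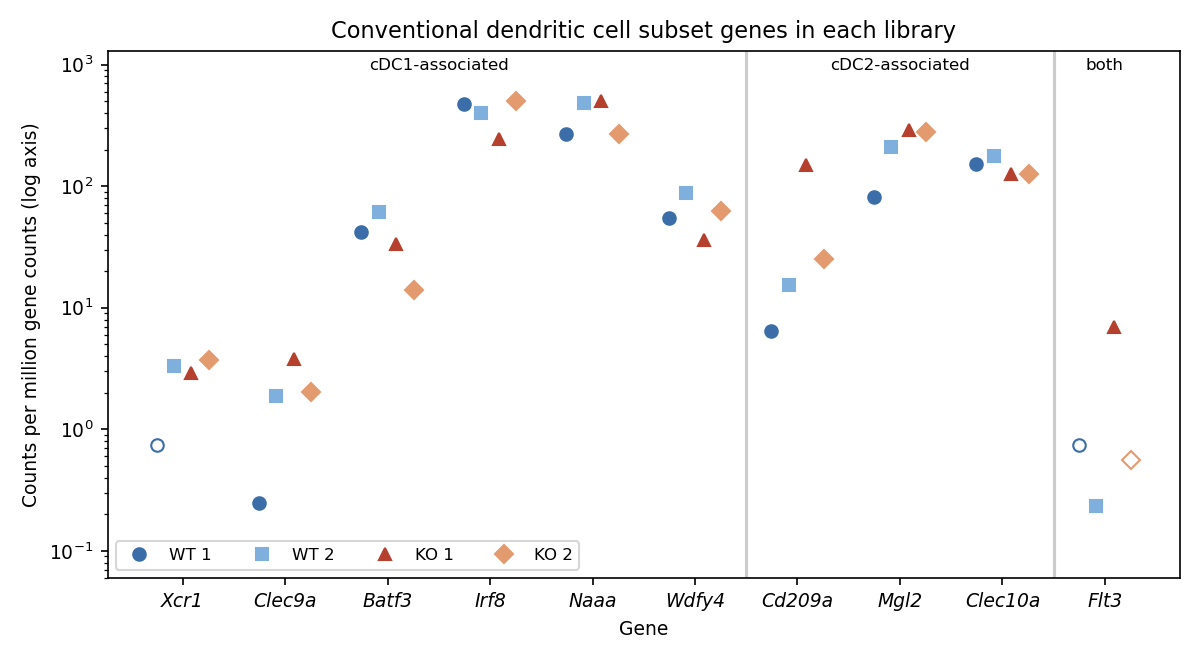
CPM on library totals (log axis) of the 10 genes in WT 1, WT 2, KO 1 and KO 2, where open symbols mark a count of 0 placed at the limit that 3 counts give. Xcr1, Clec9a and Flt3 lie below 7 CPM in every library, Cd209a is highest in KO 1 with 149 CPM, and Batf3 is lowest in KO 2 with 13.9 CPM.

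The receptors that define cDC1s were read first. Xcr1 (chr9:123852315-123862029, minus strand), the receptor for XCL1, was not counted in WT 1 (0 counts) and had 14, 13 and 20 counts in WT 2, KO 1 and KO 2. The count of 0 allows up to 0.747 CPM in WT 1, and the other libraries had 3.29, 2.90 and 3.72 CPM, so that WT 2 lay among the libraries labeled KO and the groups overlapped. The fitted log2 fold change (KO over WT) came to 0.73 ± 1.24 (SE, the standard error of the fit), short of the threshold (adjusted p = 0.829, edgeR quasi-likelihood test). Without WT 1 the value turned to -0.26, and without WT 2 it became 6.84, a value that rests on the 0 counts of WT 1.

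Clec9a (chr6:129408862-129424763, plus strand), which encodes the receptor DNGR-1 for actin filaments exposed by dead cells, had 1, 8, 17 and 11 counts in the same order. These correspond to 0.249, 1.88, 3.79 and 2.04 CPM. The libraries labeled KO were higher on library totals, but with trimmed mean of M-values (TMM) scaling KO 2, at 1.91 CPM, fell below WT 2, at 1.97 CPM. Clec9a did not pass the filter on low counts. The ratio of pooled counts was 2.61, with an exact Poisson 95% interval from 1.20 to 6.29 that covers counting error only. Tested without a filter, Clec9a had a log2 fold change of 1.09 ± 1.28 (SE, edgeR adjusted p = 0.832), and with 1 library left out it went from 0.31 without WT 1 to 2.94 without WT 2.

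Flt3 (chr5:147330741-147400489, minus strand), the receptor tyrosine kinase for FLT3L, had counts of 0, 1, 31 and 0 across WT 1, WT 2, KO 1 and KO 2. All but 1 of its counts thus came from KO 1, at 6.92 CPM, and the groups overlapped. The 0 counts of KO 2 allow up to 0.557 CPM. Flt3 did not pass the filter on low counts. The ratio of pooled counts was 26.0, with an exact Poisson 95% interval from 4.34 to 1061 that covers counting error only and not the difference between KO 1 and KO 2. Tested without a filter, its log2 fold change was 4.15 ± 1.74 (SE, edgeR adjusted p = 0.260), and it passed in 0 of the 5 alternatives that gave an adjusted p. The log2 fold change went from 3.35 without WT 1 to 6.77 without WT 2, which rests on the 0 counts of WT 1.

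Batf3 (chr1:191097847-191108945, plus strand), which encodes a basic leucine zipper factor that cDC1s require, was counted 170 and 262 times in the WT-labeled libraries against 150 and 75 times in the KO-labeled ones. On library totals this was 51.9 ± 13.6 CPM (SD, n = 2) and 23.7 ± 13.8 CPM (SD, n = 2). Both libraries labeled KO lay below both labeled WT, with KO 2 lowest. The log2 fold change was -1.48 ± 0.51 (SE), and the difference did not reach the threshold (edgeR adjusted p = 0.258, range over the alternatives 0.0443 to 0.718). Among the alternatives it passed only with a crossed replicate block, an alternative chosen after seeing the data, under which 5.47% of all genes tested passed. Its log2 fold change ranged from -2.15 without KO 1 to -1.06 without KO 2. Batf3 is also expressed by activated T cells, and the counts on the T cell list were higher in the libraries labeled KO. The part of T cells in the Batf3 values was not tested.

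Irf8 (chr8:120736358-120756694, plus strand), which encodes the interferon regulatory factor at the head of the cDC1 program, had 479 and 398 CPM in the libraries labeled WT and 245 and 503 CPM in those labeled KO. On this scale KO 2 was the highest library and KO 1 the lowest. With TMM scaling WT 1 was the highest, and the groups overlapped on both scales. The log2 fold change was -0.55 ± 0.53 (SE, edgeR adjusted p = 0.680), moving to -0.08 when KO 1 was left out and to -1.30 when KO 2 was. KO 1 was also the lowest library for the macrophage or monocyte list. Set against that list, Irf8 had 15.7, 9.83, 10.3 and 17.3 counts per 1000 list counts in WT 1, WT 2, KO 1 and KO 2, and on this scale WT 2 and KO 1 were alike. The 6 cDC1-associated genes together had 27.7, 25.7, 34.8 and 29.5 counts per 1000 list counts, higher in both libraries labeled KO, although their share of all gene counts was not. The 3 cDC2-associated genes had 7.92, 9.98, 23.9 and 14.8.

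Naaa (chr5:92257659-92278170, minus strand) encodes a lysosomal amidase that breaks down fatty acid ethanolamides. It had 268 and 487 CPM in the libraries labeled WT and 505 and 270 CPM in those labeled KO. The low and high libraries of the 2 groups thus matched each other closely. The log2 fold change was -0.29 ± 0.50 (SE, edgeR adjusted p = 0.831) and turned to 0.038 with library totals in place of TMM factors. Naaa and Irf8 did not vary together. The ratio of Naaa to Irf8 counts stood at 0.560 for WT 1 and 0.537 for KO 2, but at 1.22 for WT 2 and 2.06 for KO 1. Per 1000 counts on the macrophage or monocyte list Naaa had 8.79, 12.0, 21.3 and 9.30 counts, with KO 1 highest.

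Wdfy4 (chr14:32959547-33185508, minus strand), which encodes a BEACH domain protein needed by cDC1s to present antigen from dead cells, had 54.8 and 87.8 CPM in the libraries labeled WT and 35.9 and 63.0 CPM in those labeled KO. KO 2 lay between the libraries labeled WT on this scale, whereas with TMM scaling both libraries labeled KO were below both labeled WT. The log2 fold change was -0.82 ± 0.48 (SE, edgeR adjusted p = 0.475), with -0.43 when KO 1 was left out and -1.41 when KO 2 was.

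Among the cDC2-associated lectins, Cd209a showed the largest fitted difference of the 8 tested genes. Cd209a (chr8:3743397-3748984, minus strand), a mouse homolog of the pathogen receptor DC-SIGN, was counted 26 and 66 times in the WT-labeled libraries against 666 and 135 times in the KO-labeled ones. The levels were 6.47, 15.5, 149 and 25.1 CPM, so that both libraries labeled KO were higher but KO 1 stood far above the rest. With 10.98 ± 6.38 CPM (SD, n = 2) against 86.9 ± 87.4 CPM (SD, n = 2), the spread in the libraries labeled KO was as large as their mean. The log2 fold change was 2.63 ± 0.77 (SE), a fold of 6.18, and did not reach the threshold (edgeR adjusted p = 0.190).

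That call for Cd209a depended on the processing and on single libraries. It passed when all genes with a count were tested (edgeR adjusted p = 0.000591, where 2.74% passed), in DESeq2 (adjusted p = 0.0208), with the crossed replicate block (edgeR adjusted p = 0.00287) and without KO 2 (log2 fold change 3.34, edgeR adjusted p = 0.00212, where 9.72% of all genes tested passed). Without KO 1 the log2 fold change was 0.95 (edgeR adjusted p = 0.446), and over all alternatives the adjusted p ranged from 0.000591 to 0.646. Of the 13 genes on the macrophage or monocyte list, 2 had a positive log2 fold change, and the median was -1.20. Ccr2, a chemokine receptor of monocytes, had 306, 837, 2592 and 1217 counts, with KO 1 highest, whereas Ly6c2, a surface marker of monocytes, had 3907, 2262, 2175 and 1940 counts. The part of monocytes in the Cd209a difference was not tested.

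Mgl2, which encodes the galactose-binding lectin CD301b, had 82.1 and 212 CPM in the libraries labeled WT and 292 and 278 CPM in those labeled KO. Both libraries labeled KO were above both labeled WT, and WT 1 was the lowest. The log2 fold change was 0.66 ± 0.50 (SE, edgeR adjusted p = 0.583), and it became 0.13 without WT 1 and 1.31 without WT 2. Clec10a, which encodes the related lectin CD301a, took the opposite direction, with 153 and 177 CPM against 127 and 126 CPM. It was the steadiest of the 10 genes, the highest library holding 1.40 times the CPM of the lowest, and its log2 fold change of -0.71 ± 0.41 (SE) did not reach the threshold (edgeR adjusted p = 0.474).

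The balance of the 2 lectin copies was read within each library, where depth and scaling cancel. The ratio of Mgl2 to Clec10a counts was 0.538 and 1.20 in WT 1 and WT 2 against 2.31 and 2.20 in KO 1 and KO 2. Clec10a thus had more counts than Mgl2 in WT 1 alone. Per exon length, Mgl2 stood at 70.2 and Clec10a at 56.9 CPM per kilobase on average under the WT label, against 136 and 43.6 under the KO label. The ratio of Cd209a to Clec10a was 0.0424, 0.0874, 1.17 and 0.199 in the same order, again higher in both libraries labeled KO. The 6 cDC1-associated genes had 3.50, 2.57, 1.46 and 1.99 times the counts of the 3 cDC2-associated genes, or 3.03 ± 0.657 (SD, n = 2) against 1.72 ± 0.381 (SD, n = 2). These ratios were not tested, since they are scores over chosen genes.

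**Figure D3:**
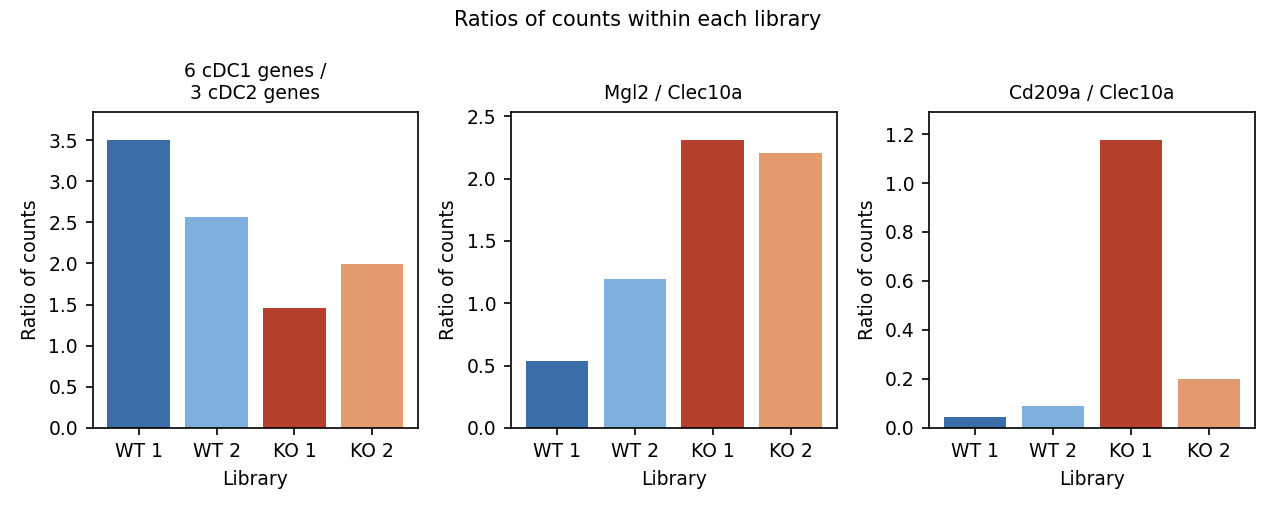
Ratios of counts within each library for the 6 cDC1-associated over the 3 cDC2-associated genes, for Mgl2 over Clec10a and for Cd209a over Clec10a; bars are single libraries and each axis starts at 0. The Mgl2 to Clec10a ratio is 2.31 and 2.20 in the libraries labeled KO against 0.538 and 1.20 in those labeled WT, and the Cd209a to Clec10a ratio of 1.17 in KO 1 stands apart.

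Across the 10 genes, 8 passed the filter on low counts and 0 of these were past the threshold of an adjusted p of 0.05 in the edgeR quasi-likelihood test, where 0.574% of the 11837 genes tested were (0.549% as higher and 0.0253% as lower in KO). At an unadjusted p under 0.05 there were 2, Cd209a and Batf3, where 13.7% of all genes tested were. DESeq2 called 1, Cd209a, where it called 2.74% of its genes. Of the 8 genes, 3 had a positive and 5 a negative log2 fold change, with a median of -0.42 beside 0.05 over all genes tested. The groups did not overlap for 5 of the 8 in TMM-scaled CPM, where this held for 47.9% of all genes tested, and for 4 of the 8 in CPM on library totals, where it held for 48.4%, shares near those of the members. Library totals moved the median of all genes to 0.38, so CPM on library totals sets the libraries labeled KO relatively higher than the fitted values do.

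**Figure D4:**
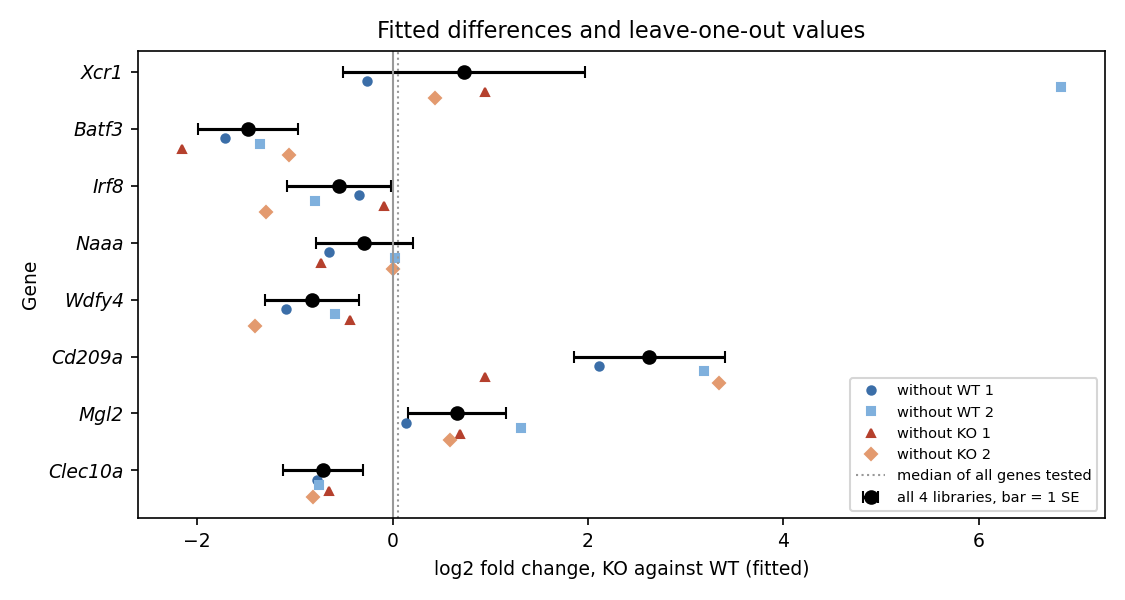
Fitted log2 fold changes of KO against WT for the 8 tested genes (black, bars are 1 SE) and the values with 1 library left out (colored symbols). Cd209a lies at 2.63 and drops to 0.95 without KO 1, Batf3 stays below 0 in all 4 cases, and Xcr1 reaches 6.84 without WT 2.

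The ligands of XCR1 and FLT3 were read next. Xcl1, the ligand of XCR1 that activated CD8+ T cells and NK cells secrete, was counted 2 and 2 times in the WT-labeled libraries against 1400 and 245 times in the KO-labeled ones. It rose by a log2 fold change of 8.08 ± 1.08 (SE, edgeR adjusted p = 0.0242), and the ratio of pooled counts was 345 with an exact Poisson 95% interval from 135 to 1268. With 2 counts in each library labeled WT, Xcl1 passed the filter on low counts only through the libraries labeled KO, and the size of its fitted fold change depends on the prior count. Leaving out KO 1 gave 6.22 on the log2 scale. Counts on the T cell list rose as well, and per 1000 of those counts Xcl1 had 7.41 and 4.42 against 128 and 36.9. A list of 4 NK cell genes had 0 and 11 counts in WT 1 and WT 2 against 109 and 10 in KO 1 and KO 2, of which Klre1 made up 104 in KO 1, the library with the most Xcl1. The part of T and NK cells in the Xcl1 difference was not tested. Flt3l, the ligand of FLT3, had 18, 19, 12 and 27 counts and a log2 fold change of -0.52 ± 0.80 (SE, edgeR adjusted p = 0.808). The receptor Xcr1 thus stayed at 20 counts or fewer in each library, while its ligand reached 1400.

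Other genes linked to cDCs came from lists of 15 cDC1, 14 cDC2 and 14 pan-cDC genes, of which 1 symbol had no row in the tables. Of these 43 genes 35 were tested, and 0 passed in either direction in edgeR, where 0.574% of all genes tested did. Their median log2 fold change was -0.02. Sirpa, an inhibitory receptor of cDC2s and macrophages, had 854, 851, 356 and 758 CPM, lower in both libraries labeled KO, with a fitted log2 difference of -0.93 ± 0.55 (SE, edgeR adjusted p = 0.480). Snx22, a sorting nexin gene of cDC1s, had 649, 519, 414 and 356 TMM-scaled CPM, with both libraries labeled KO lower and a log2 fold change of -0.60 ± 0.46 (SE, edgeR adjusted p = 0.587). Exons of Ppib on the other strand overlap 28.5% of its exonic bases, so part of its reads may belong to that gene. Spi1, which encodes the myeloid factor PU.1, had a log2 fold change of -1.20 ± 0.48 (SE, edgeR adjusted p = 0.319).

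Of the 14 pan-cDC genes 12 were tested, 8 with a positive log2 fold change, and the median was 0.46. The list held 0.113% and 0.144% of gene counts in WT 1 and WT 2 against 0.1087% and 0.1096% in KO 1 and KO 2. The 4 most abundant members, Spi1, Csf2rb, Csf2ra and Ciita, had log2 fold changes of -1.20, 0.014, -0.54 and -0.83. Of the 12, 5 were higher and 2 lower in both libraries labeled KO in TMM-scaled CPM, where groups did not overlap for 47.9% of all genes tested. Of those 5, Traf1 was at 0.40 on the log2 scale, and the other 4 were scarce and were singled out after their values were seen. Zbtb46, Dpp4 and Kit had at most 5 counts in each library labeled WT, so that they passed the filter only through the libraries labeled KO. Jaml reached the minimum in WT 2 alone of the libraries labeled WT, so that it also needed a library labeled KO. The median of 0.46 rests partly on these 4. Zbtb46, which encodes a factor largely restricted to cDCs among immune cells, had 1, 4, 21 and 51 counts (edgeR adjusted p = 0.223). Dpp4, a surface peptidase of cDC1s that T cells carry too, had 2, 5, 114 and 59 counts (edgeR adjusted p = 0.0694). Kit, the receptor of stem cell factor that melanocytes also carry, had 0, 5, 88 and 60 counts (edgeR adjusted p = 0.129), and Jaml, an adhesion molecule, had 1, 17, 146 and 62 (edgeR adjusted p = 0.225). The ratios of pooled counts were 12.1 for Zbtb46, 20.7 for Dpp4, 24.8 for Kit and 9.70 for Jaml, with lower ends of the exact Poisson 95% intervals at 4.95, 9.86, 10.4 and 5.99. The melanoma and T cell lists were higher in the same libraries, as given above, and their part in these values was not tested. Dpp4 and Kit passed under several alternatives, DESeq2 among them (adjusted p = 0.00358 and 0.00836). Jaml passed under 4, without a filter (edgeR adjusted p = 0.00504), with the crossed block (0.00157), without WT 2 (0.00773) and without KO 2 (0.0310), and its log2 fold change ranged from 2.11 without WT 1 to 5.82 without WT 2. Zbtb46 did not pass under any alternative tried. Without WT 2 the log2 fold change of Kit went from 4.32 to 9.002, which rests on the 0 counts of WT 1, and without KO 1 that of Dpp4 went from 4.05 to 3.41.

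Among 8 genes of mature migratory dendritic cells, 7 were tested. Their median was 2.87 on the log2 scale, and the list held 0.0102% and 0.0110% of gene counts in WT 1 and WT 2 against 0.0463% and 0.0425% in KO 1 and KO 2. Fscn1, Cacnb3 and Socs2 had at most 9 counts in each library labeled WT. They passed the filter only through the libraries labeled KO, and the median rests partly on them. Ccr7 alone passed, with 20, 36, 1363 and 1574 counts and a log2 fold change of 5.15 ± 0.52 (SE, edgeR adjusted p = 0.0172). Of all genes tested 0.549% passed as higher. Ccr7 directs dendritic cells to lymph nodes and is also carried by naive and memory T cells. Ccl22, a chemokine of mature dendritic cells, had 16, 28, 224 and 250 counts (log2 fold change 2.87, edgeR adjusted p = 0.0510), and Fscn1, an actin-bundling protein gene, had 3, 5, 68 and 53 counts (log2 fold change 3.33), and neither passed. Relb, the most abundant member after Ccr7, had a log2 fold change of -0.79 (edgeR adjusted p = 0.434). Of 18 transcription factor genes of the cDC1 program, all tested, 0 passed in edgeR, where 0.574% of all genes tested did. Il12b, the interleukin-12 subunit that cDC1s produce, had 0, 6, 36 and 34 counts (edgeR adjusted p = 0.300). Irf4, the cDC2 counterpart of Irf8, had 21, 19, 147 and 63 counts (log2 fold change 1.82, SE 0.66, edgeR adjusted p = 0.276) and was higher in both libraries labeled KO. Its log2 fold change was 0.99 without KO 1 and 2.31 without KO 2, where it passed (edgeR adjusted p = 0.0347). That of Il12b, 2.99, was 2.03 without WT 1 and 7.92 without WT 2 and passed in neither. The 7.92 rests on the 0 counts of WT 1. Il12b had at most 6 counts in each library labeled WT and passed the filter only through the libraries labeled KO. Irf4 is expressed by activated T cells as well, and the part of T cells in these values was not tested. Il12b and Irf4 were also singled out after their values were seen. The 9 cross-presentation genes, of which the peptide-loading gene Tapbp was the most abundant, gave 0 calls in edgeR, beside 0.574% of all genes tested. Their median log2 fold change was -0.27.

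Promoter windows from RefSeq (GRCm38.p6), 250 bases before to 50 after a start, were found for 9 of the 10 genes, Irf8 having 2 windows. They were searched on both strands for sites of the factors that the members encode. The AP-1 site TGANTCA was in 0 of these 10 windows, where 7.81% of all 32851 windows held it. The interferon response core, GAAA repeated after 2 free bases, was in 0 of the 10 and in 3.44% of all. The AP-1 and IRF composites, TGANTCA followed by GAAA after 4 free bases or directly preceded by GAAA, are special cases of the AP-1 site, were in 0 of the 10 and stood in 39 and 41 of all windows. The composite of PU.1 and an IRF, GGAA followed by GAAA after 2 free bases, was in the window of Cd209a alone, and in 2.72% of all windows. The Cd209a window is shown because this gene had the largest fitted difference; capitals mark the match, which reads GGAAGAGAAA on the opposite strand and begins 9 bases before the annotated start. The match is a description of the letters only.
Cd209a promoter, chr8:3748935-3749234, minus strand: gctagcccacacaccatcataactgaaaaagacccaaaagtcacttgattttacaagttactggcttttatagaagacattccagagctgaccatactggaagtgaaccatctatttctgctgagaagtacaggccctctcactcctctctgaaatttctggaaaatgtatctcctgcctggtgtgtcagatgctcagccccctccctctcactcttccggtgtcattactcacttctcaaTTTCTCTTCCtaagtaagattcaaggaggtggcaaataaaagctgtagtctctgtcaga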

How the data were processed

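The values deposited for each of the 4 libraries were raw counts of reads on genes, not normalized by the authors. Per the submitters' processing notes and the study's methods, reads were aligned to mm10 with HISAT2 2.1.0 and counted with HTSeq 0.11.0; the annotation and strand setting are not given in the sources used here, so overlapping genes can receive reads of one another. Rows that name no gene (71.2% to 79.5% of reads) entered neither library sizes nor tests. Of 55367 symbols, 96.4% matched GENCODE M21 (GRCm38), used for positions and exon lengths; coordinates are 1-based. CPM were computed on summed gene rows. Tests were run with edgeR 4.0.16 under R 4.3.3 (filterByExpr with a minimum count of 10 and total of 15, TMM factors, quasi-likelihood F test, group as the only term, all 4 libraries, two-sided, Benjamini-Hochberg over all genes tested, threshold 0.05). The SE was the absolute log2 fold change over the square root of F. Limits for 0 counts use 3 counts. Intervals cover counting error only. Scripts were tested on simulated data, and plots were drawn with matplotlib 3.10.9.

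The members and gene lists were chosen with earlier results of these data known. By rule, up to 4 genes of each other list could be named (calls first, then the most abundant), with the ligands Xcl1 and Flt3l, the label checks Satb1, Xist, Cd8a and Cd8b1, and the 3 nearest profiles. Named outside this rule, after their values were seen, were Zbtb46, Dpp4, Kit, Jaml, Traf1, Irf4, Il12b, Ccr2, Ly6c2, Pax5, Siglech, Cacnb3 and Socs2. Alternatives were RLE, upper-quartile or no scaling factors, no filter or a minimum count of 50, DESeq2 1.42.0, a prior count of 2, a replicate block and each library left out. A crossed block was added after seeing the data.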

Additional observations from a re-analysis of the deposited data

How the results depend on the processing

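The number of genes past the threshold, 68, became 136 with library totals, 583 without a filter on low counts, 375 in DESeq2, 215 with a replicate block and 647 with a crossed block, and 113 to 1249 with 1 library left out, where a lone library is assumed to vary like the other group. The cause was not tested. The count of members went from 0 to 1 without a filter, to 1 in DESeq2 and to 2 with the crossed block (0 to 1 with 1 library left out). Cd209a passed without a filter (2.57), in DESeq2 (2.62) and with the crossed block (2.31), with 0.95 to 3.34 when 1 library was left out, and Batf3 passed with the crossed block (-1.57). Naaa turned to 0.038 with library totals and ranged from -0.73 to 0.021 with 1 library left out, and Xcr1 from -0.26 to 6.84. The same libraries left out gave -2.15 to -1.06 for Batf3, -1.30 to -0.08 for Irf8, -1.41 to -0.43 for Wdfy4, 0.13 to 1.31 for Mgl2 and -0.82 to -0.65 for Clec10a. With the minimum count of 50 Xcr1 was not tested.

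The log2 of the mean in KO over that in WT was -0.16 for the summed cDC1-associated share, 0.63 for the cDC2-associated share and -0.81 for their ratio, and with 1 library left out -0.31 to -0.0050, 0.30 to 1.05 (lowest without WT 1, highest without WT 2) and -1.06 to -0.58. Without Irf8 and Naaa, and with Cd209a alone for cDC2, these became -0.66, 2.98 and -2.72. Libraries of the same number did not deviate together (correlation of deviations -0.18 across genes). With 2 libraries a group, this value cannot tell whether the numbers pair the libraries, and the labels name no pairing. Under the replicate block 0 members passed in edgeR.

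Scarce genes limit the reading: a count of 3 is 0.557 to 0.747 CPM, and Xcr1, Clec9a and Flt3 stood at 31 counts or fewer in each library.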

Other observations

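The relatives of Cd209a, which lie beside it in the genome, were looked at as a group. Of the 6 genes Cd209b to Cd209g, 3 were tested and 0 passed in edgeR, where 0.574% of all genes tested did. Cd209f had 94, 49, 7 and 113 counts and Cd209g 20, 34, 1 and 24 counts (order WT 1, WT 2, KO 1, KO 2), so that KO 1, the library with the most Cd209a, had the fewest counts of both. Cd209d, with 18, 6, 44 and 15 counts, was highest in KO 1.

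Of 104 tested genes on the other lists, those whose profile over the 4 libraries lay nearest to the summed cDC2-associated genes were Zeb2, Cybb and Lyz2, with root mean square differences of 0.0815, 0.116 and 0.153 in log2 TMM-scaled CPM, where the median over the genes was 0.756. Nearest to the summed cDC1-associated genes were Fkbp1b, Relb and Irf1, at 0.111, 0.173 and 0.173, with a median of 0.635. With 4 libraries these values are a description and were not tested.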
